A study of Aspergillus nidulans FGSC A4 with 21 samples.

Results

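The genes described here are 7 neighbours on chromosome IV of *Aspergillus nidulans*, between bases 477898 and 496899 (about 19 kb), that were listed as lower in cells treated with benzo[*a*]pyrene (BaP) than in solvent controls. They are AN7271, AN7270, AN7269, AN7265, AN7264, AN12374 and AN7263, in order along the chromosome, and they are 7 of the 2403 genes that appear in the deposited tables. They were chosen by position and by being lower at 24 h and 48 h in the values reported below. The differences between BaP and DMSO at these times therefore describe the choice and were not tested. The tables go against the choice in one respect: 5 of the 7 genes were listed at both times, while AN12374 was listed at 24 h alone and AN7263 at 48 h alone. None of the 7 was listed at 6 h.

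The cultures were the wild-type strain FGSC A4, grown from spores for 18 h at 37°C in minimal medium with 1% glucose, then washed and moved to minimal medium with 0.1% glucose. One set received 200 μM BaP, a polycyclic aromatic hydrocarbon dissolved in DMSO, and the control set received an equal volume of DMSO. Polyadenylated RNA of the hyphae was sequenced from 3 cultures per treatment at 6, 24 and 48 h, and the 18 libraries of these cultures are used here. The labels number the cultures as replicates without saying whether they were started separately.

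In filamentous fungi, the genes for one secondary metabolite often lie side by side and are switched on together, frequently when nutrients run out or when spores form. The descriptions in the tables tie 2 of the 7 genes to such compounds through other species. AN7269 is described by its orthologs, which have a role in the biosynthesis of fumiquinazoline C, a peptide alkaloid of *Aspergillus fumigatus*, and are located in the cell wall. AN7264 is the ortholog of *tpcM* of *A. fumigatus*, one of the *tpc* genes for trypacidin, a spore compound of that species. AN7265 is described by orthologs alone, which include AN8376 and AN8625 of *A. nidulans* itself. AN7270 is named as the ortholog of a gene of *Aspergillus oryzae*, AO090001000616, and AN7264 also has an *A. oryzae* ortholog, AO090001000622. AN7263 has orthologs in *A. oryzae*, *A. flavus*, *A. tubingensis* and *A. kawachii* with no stated function, and AN7271 and AN12374 are proteins of unknown function.

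The 7 genes form 3 pairs that point away from each other, with one further gene at the left end. AN7270 (bases 480279 to 481844, minus strand) and AN7269 (482237 to 484082, plus strand) are separated by 392 bases. AN7265 (488556 to 489619, minus strand) and AN7264 (489814 to 491085, plus strand) are separated by 194 bases. AN12374 (492951 to 495589, minus strand) and AN7263 (495850 to 496899, plus strand) are separated by 260 bases, so in each pair the gene starts face a short shared stretch. AN7271 (477898 to 479358, minus strand) lies 920 bases before the end of AN7270 and is read in the same direction. The widest gap, 4473 bases, is between AN7269 and AN7265. The RefSeq annotation (assembly ASM1142v1, whose coordinates differ from those of the tables) holds 9 genes from AN7271 to AN7263. Of these, AN7268, AN7267 and AN7266 come between AN7269 and AN7265 in order, and AN7268 overlaps AN7269 in that annotation. None of them was listed at any time, so the run is not an unbroken row of listed genes and their levels are not known. RefSeq matched 6 of the 7 genes and has no entry for AN12374. The positions above are those of the tables, which name no genome build.

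The values are RPKM, read counts scaled by transcript length and by library size, so levels of different genes can be compared per length. In bulk RNA, fewer cells of a kind and less RNA per cell cannot be told apart. The read counts behind the values were recovered, and the library sizes they imply ranged from 5.97 to 13.7 M reads. These sizes are all under the number of high-quality reads per sample that the paper states, and the reason was not tested. At 48 h every BaP library (5.97 to 7.27 M) was smaller than every DMSO library (8.40 to 9.88 M). The same held at 6 h, while at 24 h the sizes overlapped. At 6 h and 48 h, an effect of depth and an effect of BaP therefore cannot be told apart. Single libraries, which are named here by the column names of the tables, stood apart over many genes. DMSO library D26 was the lowest of the 3 controls for 83.0% of the 755 listed genes with a negative difference at 24 h, BaP library B23 was the highest BaP library for 78.3% of them, and DMSO library D33 was the lowest control for 94.7% of the 773 such genes at 48 h. The deposited values cover only the genes called differentially expressed by the authors, so the label of hyphae could not be checked against markers.

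**Figure D1:**
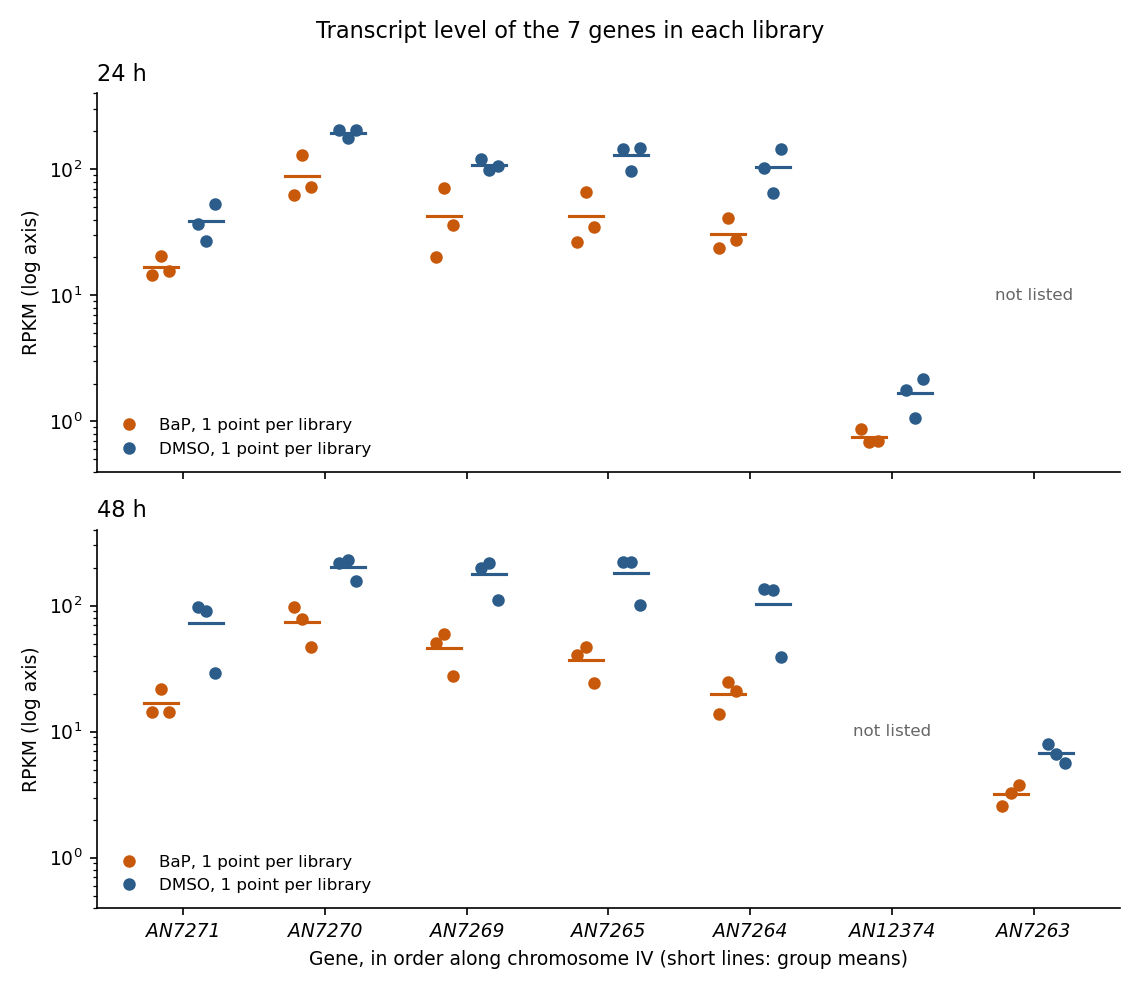
RPKM (log axis) of each of the 7 genes in every library at 24 h (top) and 48 h (bottom), 3 BaP and 3 DMSO libraries per time point, with short lines at the group means. All BaP points lie under all DMSO points of the same gene and time, and AN12374 and AN7263 lie far below the other 5 genes.

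AN7269, the gene with orthologs in fumiquinazoline C biosynthesis, had a similar mean level in BaP-treated cells at both times and a higher mean in controls at 48 h than at 24 h, with overlapping libraries. At 24 h it was at 20, 71.8 and 36.5 RPKM in BaP libraries B22, B23 and B24 and at 121, 98.1 and 107 RPKM in DMSO libraries D25, D26 and D27. At 48 h it was at 50.6, 59.9 and 27.4 RPKM in BaP libraries B28, B29 and B30 and at 200.1, 219 and 111 RPKM in DMSO libraries D31, D32 and D33. The groups did not overlap at either time, but B23 at 24 h came within 1.37-fold of the lowest control. The means were 42.8 ± 26.5 with BaP and 109 ± 11.6 RPKM with DMSO at 24 h (SD, n = 3), and 46.0 ± 16.7 and 177 ± 57.8 RPKM at 48 h (SD, n = 3). The log2 fold change on the log2(RPKM + 1) scale was -1.50 (standard error 0.44) at 24 h, the widest error among the 6 genes listed then, and -1.93 (standard error 0.38) at 48 h.

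AN7270, which shares the stretch upstream of AN7269, had the highest mean level of the 7 genes in both treatments and at both times. It was at 62.8, 129.8 and 73.0 RPKM with BaP and at 204, 177 and 207 RPKM with DMSO at 24 h. By 48 h the values were 97.5, 78.6 and 46.7 RPKM with BaP and 219, 228 and 156 RPKM with DMSO. BaP-treated cells thus held 45.1% of the control mean at 24 h and 36.9% at 48 h, with log2 fold changes of -1.21 (standard error 0.32) and -1.47 (standard error 0.35). The ratio of AN7270 to AN7269 within a library ran from 1.69 to 1.94 in controls and from 1.81 to 3.14 in BaP-treated cells at 24 h. The ratio at 48 h ran from 1.04 to 1.41 in controls and from 1.31 to 1.93 in BaP-treated cells. The ranges of the treatments overlapped at both times.

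AN7264, the *tpcM* ortholog, and AN7265, its partner across the shared start region, had the largest differences of the 7 genes at both times. At 24 h AN7264 was at 23.6, 40.8 and 27.3 RPKM with BaP and at 102, 64.9 and 144 RPKM with DMSO. The values at 48 h were 13.8, 24.6 and 20.9 RPKM with BaP and 136, 133 and 39.3 RPKM with DMSO. Library D33 was far under the other 2 controls at 48 h, at 1.6 times the highest BaP library. The control mean was 3.39 times the BaP mean at 24 h and 5.21 times at 48 h, with log2 fold changes of -1.69 (standard error 0.36) and -2.16 (standard error 0.45).

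AN7265 was at 26.7, 65.6 and 34.6 RPKM with BaP and at 144, 97.8 and 147 RPKM with DMSO at 24 h. At 48 h it was at 40.6, 46.9 and 24.4 RPKM with BaP and at 220.0, 222 and 100.3 RPKM with DMSO. Here the gap between the groups was the widest of the 7 genes, since the lowest control was 2.14 times the highest BaP library at 48 h. The log2 fold changes were -1.67 (standard error 0.37) and -2.21 (standard error 0.38). The ratio of AN7265 to AN7264 within a library ran from 1.13 to 1.61 with BaP and from 1.03 to 1.51 with DMSO at 24 h, and from 1.17 to 2.94 and from 1.61 to 2.55 at 48 h, so the treatments overlapped at both times.

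AN7271, the gene of unknown function at the left end, had nearly the same level in BaP-treated cells at both times. It was at 14.6, 20.7 and 15.5 RPKM with BaP and at 36.6, 26.9 and 53.4 RPKM with DMSO at 24 h. By 48 h the values were 14.3, 21.6 and 14.3 RPKM with BaP and 97.4, 90.7 and 29.1 RPKM with DMSO. As for AN7264, the controls at 48 h split into D31 and D32 on one side and D33 on the other, with D33 at 1.35 times the highest BaP library. The log2 fold change went from -1.12 (standard error 0.31) at 24 h to -1.90 (standard error 0.43) at 48 h.

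The last pair stood apart by its low level and by being listed at one time each. AN12374 was at 0.878, 0.685 and 0.697 RPKM with BaP and at 1.78, 1.07 and 2.16 RPKM with DMSO at 24 h. These values rest on 15 to 22 reads per BaP library and 26 to 69 per DMSO library. The highest BaP library, with 22 reads (exact 95% Poisson interval 13.8 to 33.3), and the lowest DMSO library, with 26 reads (17 to 38.1), cannot be separated by counting error alone. AN7263 was at 2.55, 3.23 and 3.80 RPKM with BaP (16 to 29 reads) and at 8.0, 6.69 and 5.67 RPKM with DMSO (50 to 83 reads) at 48 h. Both genes were at about the same share of the control mean, 45.1% for AN12374 and 47.1% for AN7263. Their log2 fold changes, -0.59 (standard error 0.25) and -0.89 (standard error 0.30), lay above -1 on the log2(RPKM + 1) scale. With 0.1 in place of 1 added to RPKM they were -1.01 and -1.07.

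Of the 6 genes listed at each time, all 6 had every BaP library under every DMSO library. This also held for 48.7% of all 1503 listed genes at 24 h and 50.5% of all 1529 at 48 h. A gene that rose cannot meet it, and it held for 732 of the 755 listed genes with a negative value at 24 h. At 48 h it held for 772 of 773 such genes, so it does not set the 6 genes apart from them. A log2 fold change under -1 was seen for 5 of the 6 at each time, against 32.7% of the listed genes at 24 h and 43.0% at 48 h. Among the listed genes with a negative value, it was seen for 491 of 755 at 24 h and 658 of 773 at 48 h. The median log2 fold change of the 6 genes was -1.35 at 24 h and -1.91 at 48 h, beside -1.09 and -1.26 over the listed genes with a negative value. These shares describe genes that were picked for being lower and show nothing further about them.

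The spread within a treatment was shared by the genes. At 24 h, B23 was the highest BaP library for 5 of the 6 genes, all but AN12374, and B22 the lowest for the same number. B22 was also the lowest for 66.0% of the 755 listed genes with a negative difference. D26 was the lowest control for 6 of 6 at 24 h, and D33 for 6 of 6 at 48 h. The shares over all listed genes with a negative difference, given above for B23, D26 and D33, show that these libraries held the same places for most other genes too. At 48 h the order of the BaP libraries was less uniform: B30 and B28 were each lowest for 3 of the 6 genes. Over the 773 listed genes with a negative difference, B30 was lowest for 42.2%, B29 for 39.2% and B28 for 18.6%. The highest BaP library was B29 for 4 of the 6 genes, B28 for 1 and B30 for 1, against 26.9%, 53.8% and 19.3% of those listed genes. D31 and D32 were each the highest control for 3 of the 6 genes, against 59.2% and 39.5% of those listed genes.

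**Figure D2:**
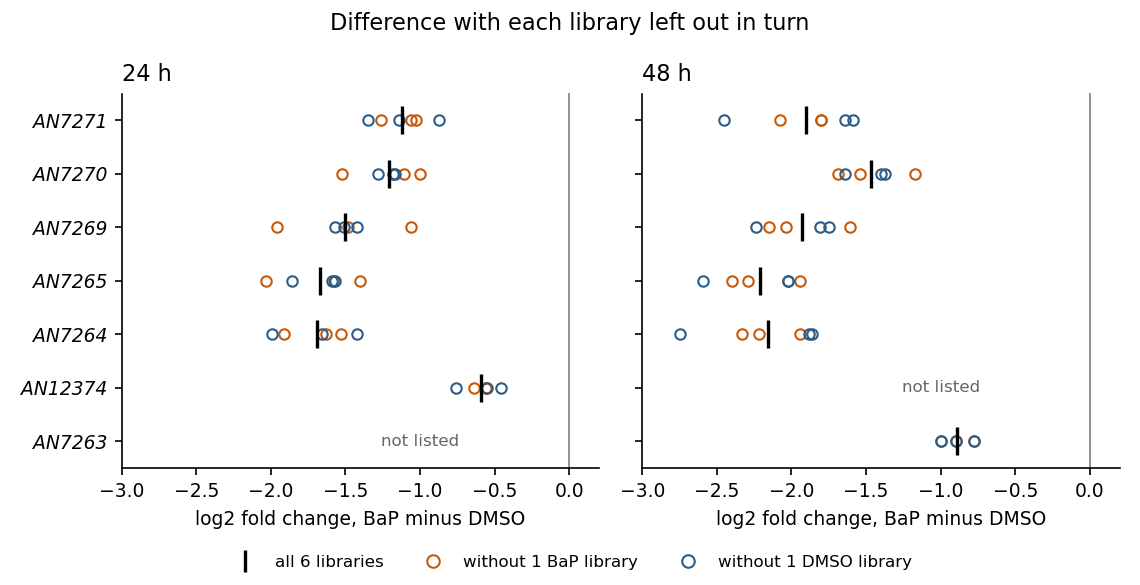
Log2 fold change (BaP minus DMSO, log2(RPKM + 1) scale) of each gene with all 6 libraries (vertical marks) and with 1 library left out (open circles, coloured by the treatment of that library), at 24 h and 48 h. No circle reaches 0, and the leftmost circles at 48 h for AN7271, AN7269, AN7265 and AN7264 are the fits without D33.

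Leaving out single libraries moved the size of the differences. Without D33, the log2 fold change at 48 h was -2.75 for AN7264, -2.59 for AN7265, -2.45 for AN7271 and -2.24 for AN7269. For AN7270 the lowest value at 48 h, -1.69, came without B28, and the value nearest 0, -1.17, without B30. At 24 h the most negative values of AN7269, AN7265 and AN7270 (-1.96, -2.03 and -1.52) came without B23, and those nearest 0 (-1.06, -1.40 and -1.0) without B22. AN7264 and AN7271 ranged from -1.99 and -1.35 without D26 to -1.42 and -0.87 without D27. The last value puts AN7271 above -1 at 24 h.

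The order of the levels was nearly the same in all 4 groups. In controls at 24 h AN7270 (196 ± 16.8 RPKM; SD, n = 3) was followed by AN7265 (129.6 ± 27.6), AN7269 (109 ± 11.6), AN7264 (104 ± 39.4) and AN7271 (39.0 ± 13.4). AN7265, AN7269 and AN7264 overlapped with their neighbours in this order, while AN7270 lay above them and AN7271 below. In controls at 48 h the order of these genes was the same. AN7270, AN7265, AN7269 and AN7264 each overlapped with the next, while AN7271 lay above AN7263. In BaP-treated cells AN7269 came before AN7265 at both times, with overlapping libraries.

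Levels at 24 h and 48 h come from 2 tables. The gene length behind the recovered reads was the same in both for each of the 5 shared genes, and for 884 of the 915 genes that the tables share. It is not known whether the library sizes carry a further factor, so changes over time were not tested. Summed over the 5 genes, BaP libraries were at 148, 329 and 187 RPKM at 24 h and at 217, 232 and 134 RPKM at 48 h. DMSO libraries were at 608, 465 and 658 RPKM at 24 h and at 873, 894 and 436 RPKM at 48 h. The control mean was therefore 577 ± 100.2 RPKM at 24 h and 734 ± 259 RPKM at 48 h (SD, n = 3). Libraries D31 and D32 at 48 h were the highest of the 6 controls and D33 was the lowest. Among the single genes, the control mean at 48 h was 1.86 times that at 24 h for AN7271, 1.63 times for AN7269 and 1.40 times for AN7265, and it was 1.03 and 0.994 times for AN7270 and AN7264. In BaP-treated cells the ratio ran from 0.646 for AN7264 to 1.07 for AN7269. For every gene and treatment the libraries of the 2 times overlapped.

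**Figure D3:**
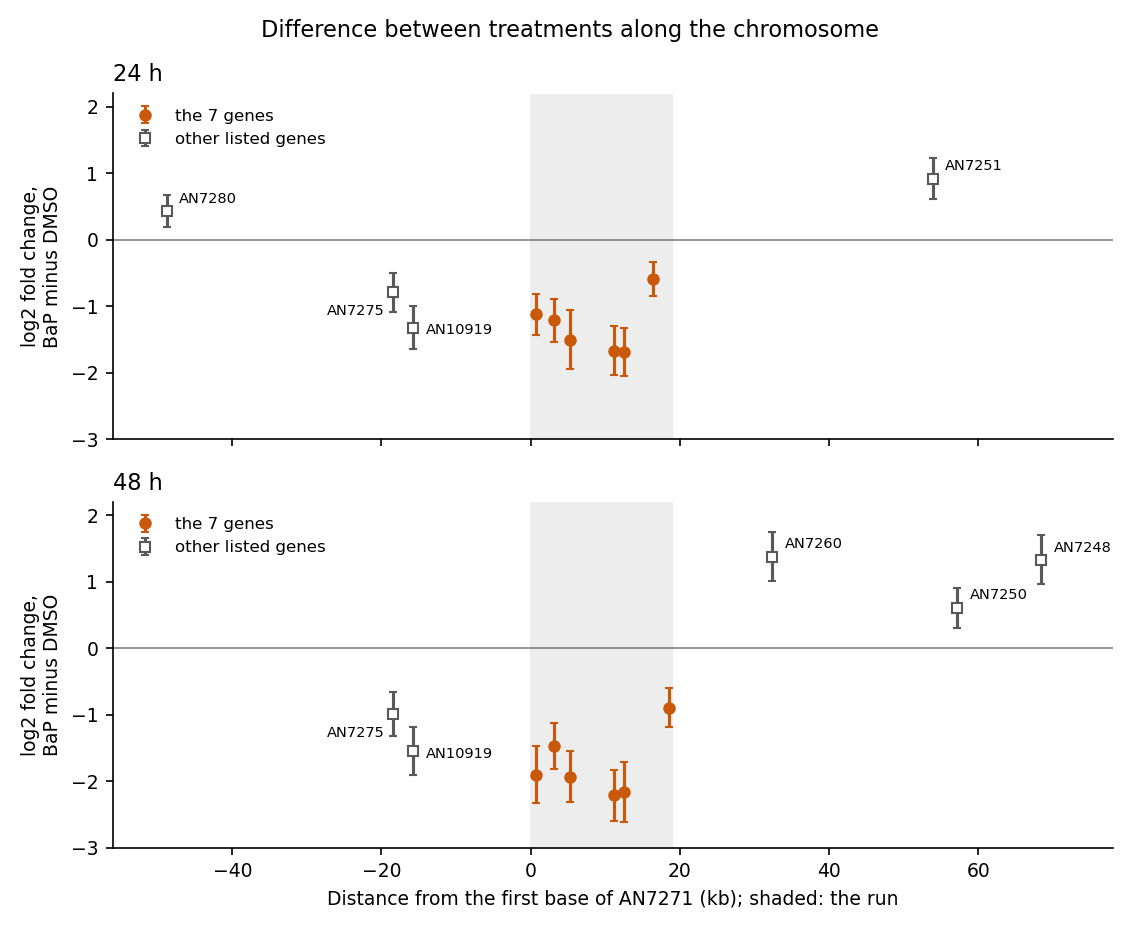
Log2 fold change (BaP minus DMSO, log2(RPKM + 1) scale; bars, standard error) against distance in kb from the first base of AN7271, at 24 h and 48 h, for the 7 genes (filled) and the other listed genes within 50000 bases (open squares). The shaded run of 7 genes is below 0, as are AN7275 and AN10919 on the left, and AN7280 on the far left and the 4 listed genes on the right are above 0.

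The nearest listed genes on the left were also lower with BaP, and those on the right higher. AN10919 and AN7275, both putative β-1,4-xylosidases, which release xylose from fragments of plant xylan, lie 15.1 and 17.7 kb before AN7271. AN10919 (461577 to 462782) fell at 24 h from 8.52 ± 2.76 to 2.77 ± 0.892 RPKM (SD, n = 3), with a log2 fold change of -1.32 (limma, adjusted p = 0.0155). At 48 h it fell from 5.86 ± 2.05 to 1.36 ± 0.742 RPKM (SD, n = 3), with a log2 fold change of -1.55 (limma, adjusted p = 0.0025). AN7275 (458668 to 460218) stayed short of the threshold of -1, at -0.79 at 24 h and -0.99 at 48 h (limma adjusted p = 0.0334 and 0.0105). It passed at both times with 0.1 in place of 1 added to RPKM (-1.13 and -1.41). At 48 h it also passed in 3 of 6 fits without 1 library (-1.03 without B28, -1.04 without B30, -1.26 without D33). The threshold is a log2 fold change beyond 1 or -1 with an adjusted p-value under 0.05, over the genes listed at that time, of which 74.0% passed at 6 h, 74.1% at 24 h and 83.9% at 48 h. The genes were selected by the authors on these libraries, so each adjusted p-value understates the error, by how much was not tested. AN7280, the only other listed gene within 50000 bases on that side, was at 0.645 and 0.207 RPKM with BaP and DMSO at 24 h and did not pass (0.43, limma adjusted p = 0.119), but did with 0.1 added (1.22, limma adjusted p = 0.0176).

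On the right, AN7260 (509226 to 511371), 12.3 kb past AN7263 and described by orthologs with chromatin binding activity, rose at 48 h from 7.53 ± 1.30 to 22.8 ± 10.4 RPKM (SD, n = 3; 1.38, limma adjusted p = 0.00469). AN7248, at 48.0 kb, rose as well at 48 h (1.33, limma adjusted p = 0.0053). AN7251 at 24 h (0.92, limma adjusted p = 0.0273) and the putative sodium/hydrogen antiporter gene *nha1* (AN7250) at 48 h (0.61, limma adjusted p = 0.0615) did not pass. AN7251 passed with 0.1 added (1.04) and without D26 (1.08), and *nha1* was at 0.94 with 0.1 added. The calls at 48 h held in 6 of 6 fits without 1 library. At 24 h, AN10919 lost its call without B22, without B24 and without D25 (-1.25, -1.20 and -1.25, limma adjusted p = 0.0576, 0.0624 and 0.0626). It also lost the call when p-values were adjusted over all protein-coding genes of RefSeq (-1.32, limma adjusted p = 0.108). Under each of these, 1 listed gene passed the threshold at 24 h in place of 1114, and no gene named here as called at that time kept its call.

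Genes elsewhere with the function words of AN7269 and AN7264 did not all move the same way. Apart from AN7269, 1 gene described with fumiquinazoline was listed at each time. AN7866 on chromosome II fell at 24 h from 2.97 ± 0.835 to 0.938 ± 0.265 RPKM (SD, n = 3), a log2 fold change of -1.02 (limma, adjusted p = 0.0157) whose call was also lost without B23 (-0.92) and without D27 (-0.86), and that was -1.56 with 0.1 in place of 1 added to RPKM. At 48 h it fell from 10.4 ± 2.88 to 2.28 ± 0.422 RPKM (SD, n = 3), a log2 fold change of -1.77 (limma, adjusted p = 0.00131) past the threshold in 6 of 6 fits without 1 library. AN8199, listed at 6 h, was at -0.57 and did not pass, but did with the libraries scaled to the same median (-1.18), and was at -0.93 with 0.1 added. The other listed ortholog of a *tpc* gene, AN1088 (*tpcK*), rose at 6 h (1.11, limma adjusted p = 1.73e-05) and at 24 h (1.21, limma adjusted p = 0.0158), where AN7264 was lower. Its call at 6 h was lost without B17 (0.98) and when the libraries were scaled to the same median (0.03). That scaling uses the listed genes alone, of which 63.6% rose past the threshold at 6 h and 10.4% fell. It takes most of a shared rise out by construction, so values with scaled libraries at 6 h do not test a call. No other listed gene was described as located in the fungal-type cell wall.

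Of the genes whose description holds the words secondary metabolite, AN7269 left out, 2 of 10 rose and none fell at 6 h, 3 of 15 rose and 2 fell at 24 h, and 1 of 8 rose and 3 fell at 48 h. Of all listed genes, 10.4% fell past the threshold at 6 h, 32.6% at 24 h and 43.0% at 48 h, and 63.6%, 41.5% and 40.9% rose. The median log2 fold change of this list, AN7269 included, was -0.28 at 6 h, when AN7269 was not listed, 0.21 at 24 h and -0.84 at 48 h, beside 1.13, -0.19 and -0.56 over all listed genes. AN3506, a putative transcription factor, rose at all 3 times (1.10, 1.42 and 1.46; limma adjusted p = 6.53e-06, 0.0155 and 0.00263), but was at 0.10 at 6 h with scaled libraries and at 0.97 without B17. AN2025, of the same description, rose at 6 h (1.39, limma adjusted p = 1.11e-06; 0.43 with scaled libraries). The putative transcription factors AN7073 and AN8509 fell at 48 h (-1.44 and -1.26; limma adjusted p = 0.00271 and 0.00384), and AN8509, at 0.202 and 1.96 RPKM with BaP and DMSO, was at -2.79 with 0.1 added. The gene *mdpB* (AN10049) of the monodictyphenone cluster was at 0.85 at 6 h and did not pass, but did with 0.1 added (1.08) and without B16 (1.04). With scaled libraries *mdpB* was at 0.02. AN6430, also a putative transcription factor, and *axhA*, for an α-arabinofuranosidase of the F9775 cluster, fell at 24 h (-1.05 and -1.04; limma adjusted p = 0.0155 and 0.0222), and *axhA* was at -0.74 without B22.

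The genes with the most similar pattern over the 12 libraries of 24 and 48 h lay elsewhere in the genome. Likeness was the root mean square difference, on the log2 scale after centering each gene, from the mean of the 5 genes listed at both times, among the 910 other genes listed at both. The lowest value, 0.098, was that of AN10116 on chromosome VIII, which was at 28.2 ± 4.22 and 44.3 ± 17.5 RPKM in controls and at 11.3 ± 4.77 and 9.84 ± 2.46 RPKM in BaP-treated cells at 24 and 48 h (SD, n = 3). Next came *alcR* (AN8978, 0.12), the activator of the ethanol utilization genes, AN5852 (0.14), AN8528 (0.15) and AN7092 (0.16), on chromosomes VII, I, V and IV. The 5 genes themselves lay at 0.16 (AN7265), 0.27 (AN7271), 0.28 (AN7269), 0.31 (AN7270) and 0.37 (AN7264) from their own mean, which they take part in.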

How the data were processed

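RNA-seq libraries of *A. nidulans* were made by polyadenylated RNA selection and a strand-specific protocol. The authors deposited, per time point, a table of the genes kept as differentially expressed, with 1 RPKM value per library. No unit is named for these values. RPKM was inferred. Once a factor per library is removed, the values within a gene are whole multiples (within 0.02 reads) of 1 step. The count was 703 of 703, 1503 of 1503 and 1529 of 1529 genes at 6, 24 and 48 h. A gene without a recovered step would have been counted too, so the count is no test of the unit. Whole multiples alone also do not show scaling by length. With length set to the span of the gene, 94, 202 and 203 genes at 6, 24 and 48 h implied the same library size. The authors' own mean log2 expression, fold changes and p-values were left aside. The submitters' processing notes name FastQC, Subread, featureCounts, limma and Cufflinks; genome build and counting by strand are not given in the sources used here. Reads of overlapping genes such as AN7268 and AN7269 may be uncertain. Column names give treatment and time but no replicate number. The 3 samples collected before treatment were not analysed here.

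Library sizes were taken from genes without introns, whose length equals their span. Each table was fitted with limma 3.58.1 (R 4.3.3) on log2(RPKM + 1), BaP against DMSO, with no covariates and Benjamini-Hochberg adjustment over the listed genes. An exact permutation test of 3 against 3 cannot go below p = 0.1 and was not run. Recovery and fit were also run on simulated reads. These had genes drawn independently and no shift of a whole library, so that run does not measure the error in these data. The remaining calculations ran in Python 3.11.15 with scipy 1.17.1, numpy 2.4.6 and pandas 2.3.3. Poisson intervals cover counting error only; p-values measure the spread between these samples, which may be technical. Besides the 7 genes, the text names every listed gene within 50000 bases, the 5 genes nearest in pattern, and up to 3 per function list with the largest change. The members and lists were chosen with earlier results of these data known. Alternatives were a pseudocount of 0.1, a minimum mean of 1 RPKM, adjustment over 10453 RefSeq protein-coding genes with unlisted genes taken as unchanged, and each library left out. Voom on recovered reads, scaling to equal medians except for the median of the 7 genes, and the minimum for that median were added after seeing the data.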

Additional observations from a re-analysis of the deposited data

How the results depend on the processing

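No paired analysis was possible because the columns carry no replicate numbers. None of the 108 values of the 7 genes under the alternatives changed sign, and 2 moved by more than 1 SD, both for AN12374, whose log2 fold change at 24 h was -1.01 with 0.1 added and -1.08 with voom. The median of the 6 genes ranged from -1.71 to -1.05 at 24 h and from -2.34 to -1.70 at 48 h when 1 library was left out. The number of listed genes past the threshold, 520, 1114 and 1283 at 6, 24 and 48 h, ranged from 448 to 552, from 1 to 1238 and from 1080 to 1404 in those fits. At 24 h it was 1 without B22, without B24 and without D25. Adjustment over all RefSeq protein-coding genes also left 1 gene past the threshold at 24 h, where 1406 genes had an unadjusted p under 0.05. Scaling the libraries to the same median over the listed genes gave 192 genes at 6 h (39 up and 153 down, against 447 and 73). It moved the median of the listed genes there from 1.13 to 0.14, which follows from the scaling, since most of them rose. No value of the 7 genes is at 6 h. The voom fit on recovered reads gave 691, 1465 and 1462 genes at 6, 24 and 48 h. Among 362 values of the other named genes, 67 changed their side of the threshold and none changed sign. Values of AN12374 and AN7263 rest on 15 to 83 reads per library.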
